A study of Rattus norvegicus with 12 samples.

Results

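The difference between jejunum and duodenum that b/b and +/b Belgrade rats had in common was measured over all 12 arrays of the series, 6 of jejunum and 6 of duodenum. The b allele of the Belgrade rat is a mutation of Slc11a2, which encodes DMT1, an importer of iron and other divalent metals, and rats with 2 copies of it (b/b) have anaemia. The 4 groups were b/b jejunum, b/b duodenum, +/b jejunum and +/b duodenum, with 3 arrays each, and no rats free of the b allele were among them. According to the series design, 3 groups of rats of each genotype gave both tissues, and each group of rats was hybridised to 1 array per tissue, so the arrays form 6 pairs of jejunum and duodenum from the same rats. RNA came from scrapes of the intestinal wall, and the labels state neither the number of rats in a group nor their age, sex or diet. A probe set, the array's unit of measurement, was called when its jejunum minus duodenum difference, averaged over both genotypes, had an adjusted p below 0.05. It was said to have moved alike when it was called, the difference had the same sign in all 6 pairs, and the smaller of the b/b and +/b effects was at least 0.5 times the larger. Of 17694 probe sets tested, 566 met these conditions, and 467 of them were annotated to a single gene (432 genes).

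The duodenum is the first segment of the small intestine and the jejunum follows it. The duodenum receives acid from the stomach and the secretions of the pancreas and liver, and is the main site of iron and much of calcium absorption, whereas the jejunum takes up most sugars, amino acids and fat. Receptors for vitamin B12 and bile acids are typical of the more distal intestine. Along this axis the epithelium is patterned by transcription factors, among them the homeobox factor Pdx1 in the proximal duodenum, and the endocrine and Paneth cells of its crypts differ from segment to segment.

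Signals are given after each array was scaled to a 2% trimmed mean of 500, and differences are on the log2(signal + 16) scale, which understates the change of dim genes. The arrays of +/b duodenum replicates 2 and 3 had deposited trimmed means of 51.6 and 126.6, against 500.2 on the other 10 arrays, and were multiplied by 9.69 and 3.95. The +/b duodenum replicate 2 array also carried exocrine pancreas RNA: trypsinogen Prss1, for example, had a signal of 27849 there, against 1340 in b/b duodenum replicate 3 and at most 325 on the other 4 duodenum arrays. The 20 pancreas markers summed to between 21601 and 47838 on the 6 jejunum arrays, to 31883 to 65556 in b/b duodenum and to 34373 to 259921 in +/b duodenum. Zg16, which goblet cells also make, gave most of the sum on all arrays but that of +/b duodenum replicate 2. Their mean log2 level was 6.38 to 6.87 on the jejunum arrays, 6.68 to 9.08 in b/b duodenum and 6.43 to 13.03 in +/b duodenum, and 13 of them had signals under 100 on every jejunum array of each genotype. Of the genes used to check the segment labels, Pdx1 and the calcium carrier S100g were higher on every duodenum array than on any jejunum array. Gata4, which both segments are known to express, did not pass the test (limma, log2 difference -0.34, adjusted p = 0.16). Pdx1 and S100g are also among the largest falls given below. Pdx1 had a mean signal under 100 in jejunum and was tested only through its duodenum signals. They are therefore no separate support for those falls. None of the 10 enterocyte markers tested passed, and their median difference was -0.26 (at an unadjusted p below 0.05, 1 was higher and 7 were lower). The brightest signal on an array tracked the replicate number (85087 to 145043 for number 1, and 30742 to 51250 for number 3) in both segments.

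In jejunum, phospholipase, vitamin B12 receptor, distal gut hormone and Paneth cell transcripts were higher, and transcripts of iron and calcium transport, alkaline phosphatase, alcohol dehydrogenases and glucuronosyltransferases were lower, than in duodenum. Of 17694 probe sets, 795 were called (4.49%), 409 higher (2.31%) and 386 lower (2.18%) in jejunum, by limma with a block for each group of rats and Benjamini-Hochberg adjustment over all probe sets. The change was at least 2-fold in 239 of them and at least 4-fold in 51. The median absolute difference was 0.77 among called probe sets and 0.20 over all. The call count depended on single groups of rats: it was 309 when the b/b replicate 2 pair was left out, 435 when b/b replicate 3, 394 when +/b replicate 1 and 493 when +/b replicate 2 was left out.

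Most of the called differences had the same sign in both genotypes, which calling on the mean of both favours. By the tests of each genotype alone, 392 of the 795 called probe sets passed in neither. Among the 795 called probe sets, 705 had 1 sign in all 6 pairs (3.98% of those tested, while 12.6% of all probe sets tested had 1 sign in all 6 pairs whether called or not), and 566 moved alike (3.20%), 274 higher and 292 lower. The 6 jejunum signals lay wholly above or below the 6 duodenum signals in 199 of these 566, against 1.74% of all probe sets tested. The 566 were picked on the same arrays by a rule that favours such separation, so this is a description and no separate support. The difference taken in b/b rats alone passed in 431 probe sets (2.44%), 208 higher (1.18%) and 223 lower (1.26%), and that in +/b rats alone in 86 (0.486%), 30 higher (0.170%) and 56 lower (0.316%). These contrasts share no array, but their tests share the error estimate of the same fit, so the calls are not independent. In all, 80 probe sets passed in both, which is 18.6% of the b/b calls and 93.0% of the +/b calls, all with the same sign. All 86 probe sets called in +/b rats had the same sign in b/b rats, and 418 of the 431 called in b/b rats had the same sign in +/b rats, where 11322 of all 17694 probe sets agreed in sign. All 3 +/b pairs followed the b/b direction in 348 of the 431, against 24.1% over all probe sets. Pooling gained calls, since 323 of the 566 had passed in neither genotype alone.

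The b/b difference was the larger in 621 of the 795 called probe sets and in 416 of the 566 that moved alike. Their medians were 0.83 in b/b and 0.69 in +/b rats for those higher in jejunum, and -0.79 in b/b and -0.67 in +/b rats for those lower. A test of whether the segment difference itself differed between genotypes called 2 of 17694 probe sets (0.0113%), and 777 had an unadjusted p below 0.05. Another 139 called probe sets had 1 sign in all 6 pairs but a smaller effect below 0.5 times the larger, and in 129 of these b/b was the larger. Just inside that limit were Tspan6 (ratio 0.502) and Paox (0.504), and just outside it Mep1a (0.499) and Selenop (0.495). Got2 (adjusted p = 0.0496) and Tpst1 (0.0489) were just inside the call threshold, and Ccdc88c (0.0503) and Degs2 (0.0505) just outside.

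**Figure D1:**
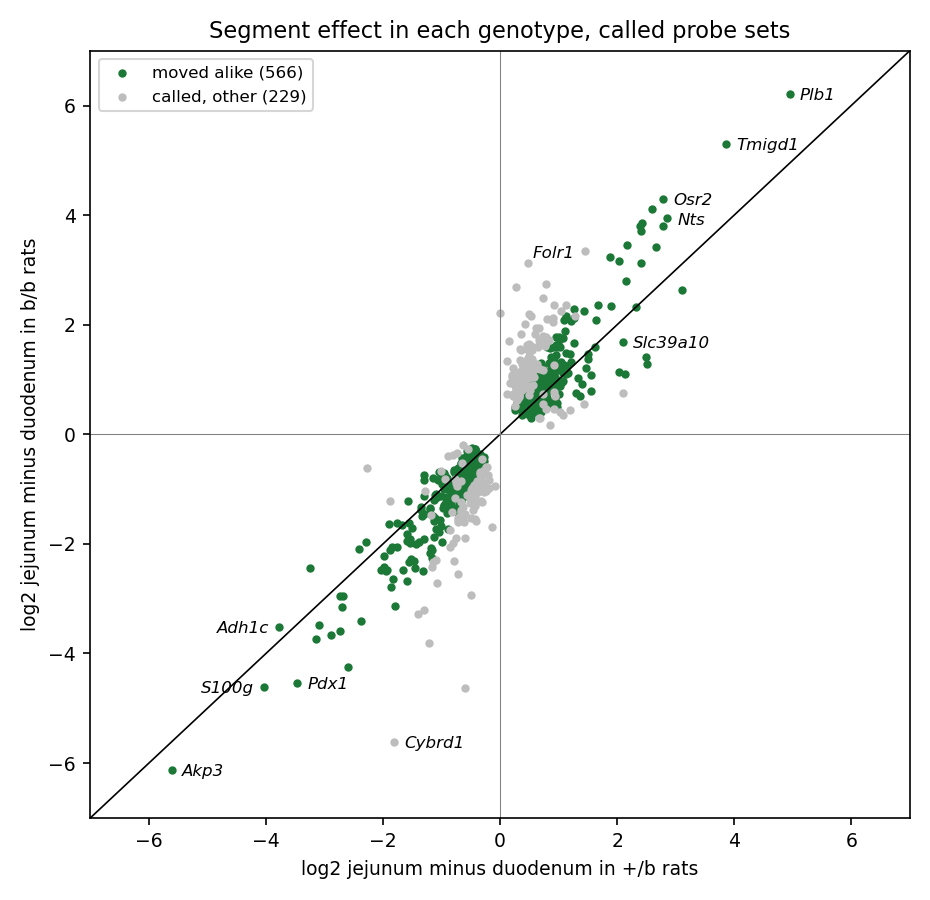
Log2 jejunum minus duodenum difference in +/b rats (x axis) and in b/b rats (y axis) for each of the 795 called probe sets, with the line of equal differences; green points are the 566 that moved alike and grey points the other called ones. Points lie mainly in the quadrants of equal sign, most with the larger difference in b/b, and Cybrd1 and a probe set with no gene lie farthest below the line.

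The largest rise in jejunum was that of Plb1, a brush border phospholipase that splits dietary phospholipids and retinyl esters. Its signals were 3609, 9434 and 6149 in b/b jejunum and 6584, 1052 and 823 in +/b jejunum, against 101, 35.7 and 69.8 in b/b duodenum and 37.6, 67.3 and 29.2 in +/b duodenum. No jejunum array came near any duodenum array, and within jejunum +/b replicates 2 and 3 were the lowest. The difference was 5.58 ± 0.40 (SE, n = 6 pairs), a 47.8-fold rise (limma, adjusted p = 2.63e-05). Tmigd1, an adhesion protein of the epithelial surface, had 916, 4108 and 2349 in b/b jejunum and 1814, 988 and 465 in +/b jejunum, against 25.9, 41.9 and 45.8 in b/b duodenum and 22.6, 110.4 and 43.3 in +/b duodenum. It was 23.9-fold higher (4.58 ± 0.33), again with no overlap. Like Plb1, it had a mean under 100 in duodenum and passed the signal filter only through jejunum. Cubn encodes cubilin, the receptor for intrinsic factor with bound vitamin B12. Its signals were 12903, 6632 and 6856 in b/b jejunum and 8992, 5234 and 4755 in +/b jejunum, against 1706, 376 and 381 in b/b duodenum and 1155, 1406 and 893 in +/b duodenum. The groups did not overlap, and the 8.31-fold rise had the smallest error among the 15 genes with the largest shared rise (3.06 ± 0.17, adjusted p = 8.27e-06). Cubn rose by 3.70 in b/b and 2.41 in +/b rats, and limma did not call that inequality (95% interval 0.53 to 2.06, adjusted p = 0.965). The intervals of Osr2 (0.22 to 2.81), Cmahp (0.44 to 2.43) and Gnai1 (0.09 to 2.63) also lay above 0, uncalled. Those of the other genes among the 15 included 0.

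The other genes among the 15 with the largest shared rise were Osr2 (11.6-fold), Nts (10.5), Fabp6 (10.2), Pla2g2a (9.79), Cmahp (8.82), Fam151a (8.23), Mmp7 (7.28), Pyy (6.81), Hspa12a (6.08), Gnai1 (5.86), Gcg (5.56) and RatNP-3b (4.99). Osr2, a zinc finger transcription factor, had signals from 474 to 1305 on the 6 jejunum arrays (median 951), against 23.4 to 256.5 on the 6 duodenum arrays (median 56.5), the highest being +/b duodenum replicate 2. Fabp6, the ileal bile acid binding protein, varied widely: it had 326.5, 5349 and 476 in b/b jejunum and 497, 375 and 243 in +/b jejunum, against 13.3, 51.9 and 72.6 in b/b duodenum and 23.0, 208.5 and 11.1 in +/b duodenum. Its b/b replicate 2 pair differed by 6.30 and its +/b replicate 2 pair by 0.80, although the 6 jejunum values still lay above the 6 duodenum values. Hspa12a, Gnai1 and Gcg were the only 3 of these 15 whose jejunum and duodenum signals overlapped. Mmp7 and Pyy were dim in duodenum, with signals of at most 24.4 and 30.3, so that their fold changes depend on the constant of 16. With 64 in its place, 12 of the 30 genes with the largest shared change moved by over 1.5 times in fold (the log2 difference of Plb1 was then 4.83, of Tmigd1 3.76, of Fabp6 2.54, of Hspa12a 1.80 and of Akp3 -5.21), and with 1 in its place 4 did (Mmp7, Pyy, Hspa12a and Adh7).

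The largest fall was that of Akp3, an intestinal alkaline phosphatase known from the mouse as the duodenal form. Its signals were 81.1, 16.5 and 713 in b/b jejunum and 59.2, 22.9 and 345 in +/b jejunum, against 8876, 12427 and 7144 in b/b duodenum and 5138, 4417 and 5343 in +/b duodenum. The duodenum arrays ran from 4417 to 12427, with every b/b array above every +/b array. The jejunum arrays spanned a wider range in fold, with replicate 3 highest in each genotype. Akp3 was 58.4-fold lower in jejunum (-5.87 ± 0.54, adjusted p = 0.000126). S100g, calbindin-D9k, which ferries calcium across the enterocyte, had 902, 1142 and 793 in b/b jejunum and 1210.4, 1817 and 1311 in +/b jejunum, against 13599, 35924 and 25373 in b/b duodenum and 27002, 20242 and 23662 in +/b duodenum. It was 19.9-fold lower with the smallest adjusted p of all 30 genes named here (-4.32 ± 0.16, adjusted p = 3.16e-07), and its 6 pairs lay between -4.97 and -3.47. Pdx1 had 44.9, 38.1 and 121 in b/b jejunum and 15.1, 86.3 and 127 in +/b jejunum, against 1132, 1777 and 2707 in b/b duodenum and 969, 539 and 1127 in +/b duodenum, a difference of -4.00 ± 0.29. Pdx1 is also a pancreas gene. Its lowest duodenum signal was on the array with the most pancreas RNA, which was multiplied by 9.69. What pancreas tissue added to the Pdx1 signals was not tested.

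Adh1c, a class I alcohol dehydrogenase, was 12.5-fold lower in jejunum, with 206 to 1517 on the 6 jejunum arrays (median 592), against 2095 to 16549 on the 6 duodenum arrays (median 9225). Adh1c, Mmp7 and Akr1c15 were the 3 of the 30 with the greater effect in +/b rats (for Adh1c, -3.52 in b/b and -3.77 in +/b). The other genes among the 15 with the largest shared fall were Slc11a2 (10.8-fold), Adh7 (9.75), Ugt2b7 (9.66), Ugt2b35 (7.62), Slc40a1 (7.44), Sult6b2 (7.18), Slc4a7 (7.06), Meis2 (5.03), Akr1c15 (4.78), Aqp8 (4.77) and Onecut2 (4.61). Among the 15, Slc11a2 and Akr1c15 had overlapping jejunum and duodenum signals. Aqp8, a water channel, had the weakest test of the 30 (adjusted p = 0.0332) and the widest range of pairs, from -5.61 in b/b replicate 2 to -0.07 in b/b replicate 3. The call of Pyy was lost when +/b replicate 1, b/b replicate 2 or b/b replicate 3 was left out (adjusted p up to 0.128 over the alternatives) and that of Aqp8 without +/b replicate 1, without +/b replicate 2 and without the b/b replicate 1 pair (adjusted p up to 0.215).

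**Figure D2:**
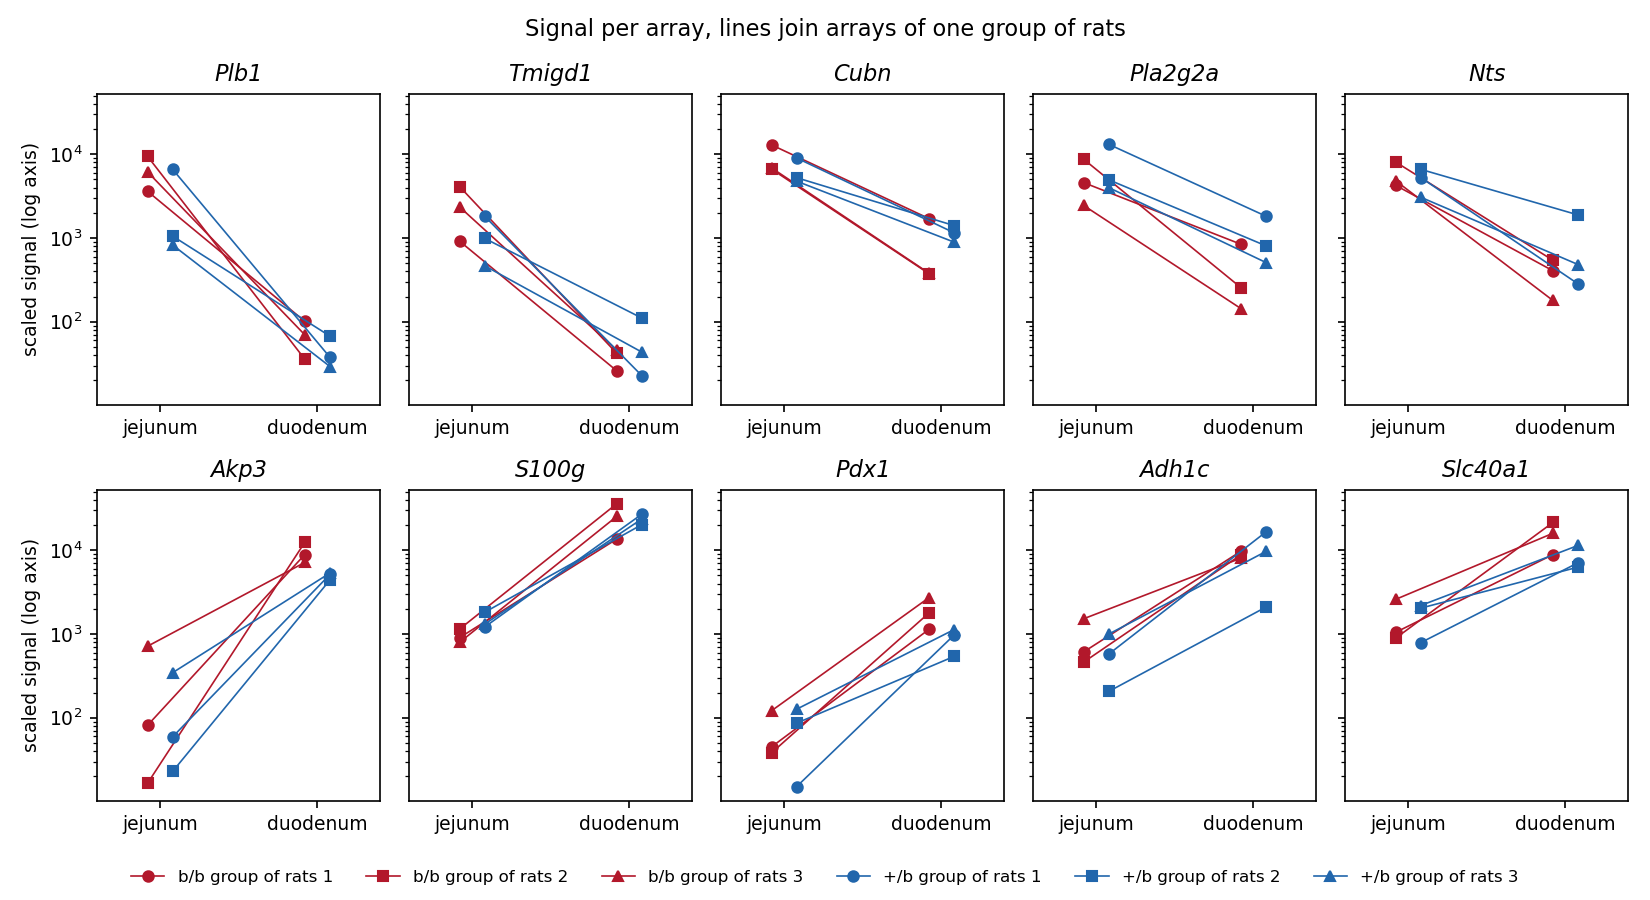
Scaled signal on a log axis of 5 genes higher (upper row) and 5 lower (lower row) in jejunum, with jejunum at the left of each panel, duodenum at the right, and a line joining the arrays of each group of rats. All 60 lines run in the direction of their row, which the rule for moving alike requires. In these 10 genes no jejunum point overlaps a duodenum point, and genes with overlapping signals, such as Gcg and Slc11a2, are not among them.

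**Figure D3:**
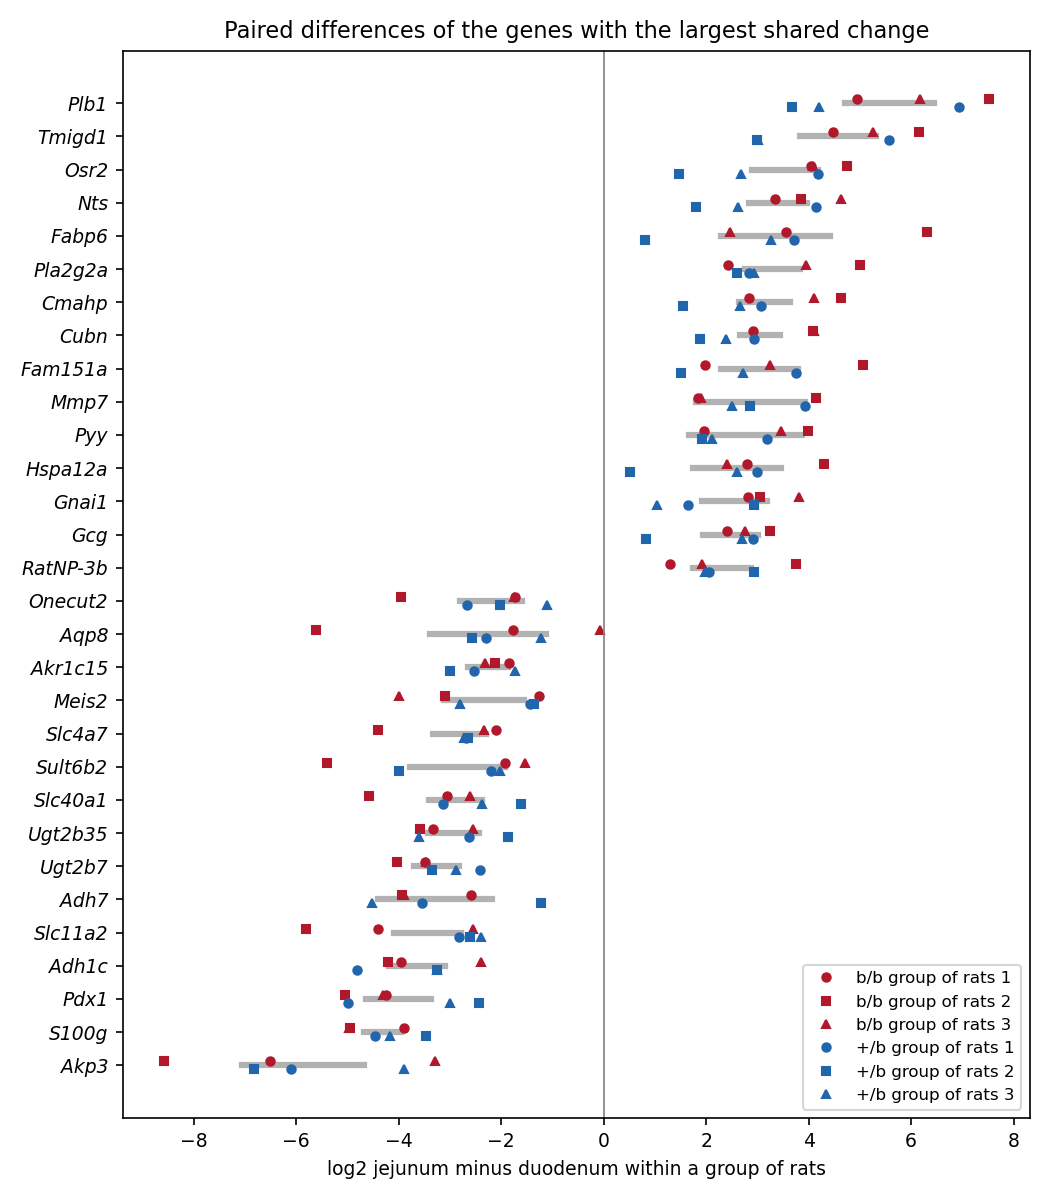
Log2 jejunum minus duodenum difference within each of the 6 groups of rats for the 30 genes named for the largest shared change; grey bars are 95% confidence intervals of the mean of both genotypes. All points lie on the side of the mean, which the rule for moving alike requires, the nearest to 0 being the b/b replicate 3 pair of Aqp8 at -0.07.

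Some of the genes that moved alike were measured by several probe sets. Of the 395 genes whose brightest probe set moved alike, 103 had further probe sets, 137 in all, of which 124 (90.5%) had the same sign as the brightest, while 65.2% of the 3434 further probe sets of all genes tested shared its sign. Of the 137, 44 were called in the same direction and none in the opposite one (limma, adjusted p below 0.05, and 0 at an unadjusted p below 0.05). The same rule was applied to every probe set, and 34 of the 137 met it themselves, among them 3 of Onecut2 and 2 of Slc40a1. All these probe sets were measured on the same arrays. A further Slc11a2 probe set was called but did not move alike.

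The gene lists below were read against all 10067 genes tested, each represented by its brightest probe set. Of these, 543 were called (5.39%), 279 higher (2.77%) and 264 lower (2.62%) in jejunum, 395 moved alike (3.92%), and the median difference was 0.07. Members with a mean signal under 100 over the 12 arrays were left out of the tested counts. Of the 566 probe sets that moved alike, 19 passed this filter only through jejunum and 10 only through duodenum, with a mean under 100 in the other segment, so that they had to differ to be tested. Among list members these were Plb1, Fabp6, Osr2, Mmp7 and Pyy in jejunum and Pdx1, Meis2, Ugt2b7 and Adh7 in duodenum. Of the other genes with the largest shared change, Tmigd1, Hspa12a and Gnai1 passed only through jejunum. The medians are relative to the scaling: in the values as deposited, the medians of the 32 lists lay 0.57 to 0.88 higher, where the median of all probe sets itself stood at 0.84, and 17 lists changed sign. Quantile normalization moved the list medians by -0.11 to 0.31. In scrapes, fewer cells of a type and less RNA per cell cannot be told apart.

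Among 25 regional transcription factors tested, 1 was higher and 3 were lower in jejunum, and all 4 moved alike. Osr2 was the one that rose. Beside Pdx1, Meis2, a homeobox cofactor, fell by 2.33 ± 0.36 and Onecut2, a cut-homeobox factor, by 2.21 ± 0.28. Meis2 had 80.5, 43.2 and 31.6 in b/b jejunum and 62.6, 64.8 and 84.0 in +/b jejunum, against 215.7, 493 and 742 in b/b duodenum and 197.3, 191.6 and 687 in +/b duodenum. The caudal factors Cdx1 (0.50, adjusted p = 0.15) and Cdx2 (0.30, adjusted p = 0.19) did not pass, nor did Hnf4a (-0.18) and Gata6 (0.17). The list's median was 0.09.

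Of 19 iron genes tested, 6 fell and 1 rose, and 6 of these 7 moved alike (36.8% called, median -0.38). Slc40a1, ferroportin, which exports iron from the enterocyte, had 1045, 889 and 2586 in b/b jejunum and 788, 2034 and 2186 in +/b jejunum, against 8849, 21417 and 15909 in b/b duodenum and 7077, 6276 and 11390.1 in +/b duodenum. Its groups did not overlap (-2.90 ± 0.24). Slc11a2 had 1336, 473.5 and 3676 in b/b jejunum and 416, 618 and 1149 in +/b jejunum, against 28450.4, 27501 and 21653 in b/b duodenum and 3056, 3839 and 6080.1 in +/b duodenum. Its difference was -4.25 in b/b and -2.61 in +/b rats, and the test of that inequality did not pass (-1.65, 95% interval -2.96 to -0.34, adjusted p = 0.965). A dimmer Slc11a2 probe set did not move alike, with -3.81 in b/b and -1.21 in +/b rats. By the same test its inequality did not pass either (-2.60, 95% interval -3.44 to -1.77, adjusted p = 0.155). Epas1, the hypoxia-inducible factor HIF-2 alpha, fell by 1.64 ± 0.16, Hmox1, haem oxygenase, by 1.00 ± 0.19, and Heph, the ferroxidase hephaestin, by 0.38 ± 0.09. Aco1, the iron-responsive protein IRP1 and cytosolic aconitase, rose by 0.48 ± 0.09. Transferrin receptor Tfrc was at 0.02 (adjusted p = 0.94).

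Cybrd1, the brush border ferric reductase, was the seventh called iron gene and the only one whose brightest probe set did not move alike. Its signals were 226, 325 and 250.7 in b/b jejunum and 228, 174 and 268.5 in +/b jejunum, against 5752, 22238 and 20079 in b/b duodenum and 599.8, 771 and 1157 in +/b duodenum. The jejunum arrays of both genotypes were alike in level, and the b/b duodenum arrays stood far above all others. The segment difference was -5.61 in b/b and -1.81 in +/b rats, and it differed between them (-3.80, 95% interval -4.69 to -2.92, adjusted p = 0.0218). A probe set with no gene, the other 1 of the 2 called in that test, behaved in the same way, with a difference of -4.04.

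Several calcium and phosphate genes fell. Of 10 calcium absorption genes tested, 3 fell and none rose (30.0% called, median -0.28), by limma at an adjusted p below 0.05. These were the apical channel Trpv6 (-1.69 ± 0.28), the carrier S100g and the basolateral pump Atp2b1 (-1.95 ± 0.18), that is, the entry, transit and exit steps of transcellular absorption. Trpv6 alone of the 3 did not move alike (-2.30 in b/b and -1.09 in +/b). The vitamin D receptor Vdr was at -0.49 (adjusted p = 0.33). Of 7 phosphate and alkaline phosphatase genes, Akp3, Alpi and the ectoenzyme Enpp3 (-0.42 ± 0.09) fell and 1 rose. Alpi, the other intestinal alkaline phosphatase, fell by only 0.59 ± 0.10 with overlapping groups, while Slc34a2, the sodium phosphate cotransporter of the brush border, rose by 1.84 ± 0.23. Neither Alpi nor Enpp3 moved alike.

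Vitamin B12 and folate genes moved both ways: of 11 tested, 3 rose and 1 fell (36.4% called, median -0.02). Beside Cubn, its membrane anchor Amn rose by 0.52 ± 0.10 without moving alike, since 1 pair stood at -0.01. Folr1, a folate receptor, rose by 2.39 ± 0.16, with 1884, 3360.0 and 2130.3 in b/b jejunum and 1417, 2954 and 1287 in +/b jejunum, against 274, 197.3 and 198 in b/b duodenum and 421, 1128 and 530.3 in +/b duodenum. The rise was 3.34 in b/b and 1.45 in +/b rats, and the test of the inequality did not pass (adjusted p = 0.272). Slc19a1, the reduced folate carrier, fell by 1.32 ± 0.13, and the proton-coupled folate transporter Slc46a1 was at -0.02 (adjusted p = 0.95). Of 11 bile acid and sterol transport genes, Fabp6 and Abcg8 (0.76 ± 0.17) rose and Abcc2 (-0.80 ± 0.13) fell, and Abcg8 did not move alike. The apical bile acid transporter Slc10a2 was at -0.03 (adjusted p = 0.98).

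Of 15 genes tested on the brush border peptidase list, 4 rose and 1 fell (33.3% called), by 0.47 to 1.19 each. Naaladl1, an aminopeptidase of the brush border, rose by 1.19 ± 0.12, Mep1a, a meprin subunit, by 0.65 ± 0.09 and the dipeptidase Dpep1 by 0.58 ± 0.09. Cndp2, on the list although a cytosolic dipeptidase, rose by 0.48 ± 0.09, whereas Ace, angiotensin-converting enzyme, fell by 0.47 ± 0.10. Mep1a and Dpep1 did not move alike. Of 9 disaccharidase and hexose transport genes, trehalase Treh alone passed (-0.95 ± 0.14), and the glucose carrier Slc5a1 was at 0.15 (adjusted p = 0.73). None of 17 peptide and amino acid transporters passed (0.00% called by limma, median -0.10, and 1 higher and 4 lower at an unadjusted p below 0.05), with the peptide carrier Slc15a1 at 0.10. Of 22 genes of fat uptake and chylomicron assembly, Plb1, the fatty acid translocase Cd36 (1.00 ± 0.22) and Apoc2 (0.68 ± 0.14) rose and Mogat2, of triglyceride resynthesis, fell by 0.42 ± 0.09. Only Plb1 and Mogat2 of these 4 moved alike. Of 19 genes of fatty acid oxidation, Angptl4 rose (1.21 ± 0.19) and Acadm fell (-0.85 ± 0.12), and Angptl4 did not move alike.

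Of 11 glucuronosyltransferase and sulfotransferase genes tested (17 on the array), which conjugate foreign compounds, hormones and bilirubin, 6 fell in jejunum, all of which moved alike, and none rose (54.5% called, median -0.63). With the dim members included the median was -0.43, and in the values as deposited it was 0.21 with 2 lower. Ugt2b7 had 27.3, 42.5 and 106 in b/b jejunum and 91.7, 21.1 and 143 in +/b jejunum, against 467, 947 and 1342 in b/b duodenum and 557.5, 363 and 1149 in +/b duodenum, and was 9.66-fold lower (-3.27 ± 0.20). Papss2, which makes the sulfate donor, fell by 1.77 ± 0.21, Ugt2b15 by 0.82 ± 0.19, Ugdh, which makes the glucuronate donor, by 0.67 ± 0.11 and Sult1b1 by 0.54 ± 0.10. Sult6b2, a sulfotransferase outside the list, fell by 2.84 ± 0.42. The Ugt2b genes are near-identical copies in places, and signal shared between their probe sets cannot be told apart.

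Of 20 alcohol, aldehyde and aldo-keto enzyme genes, 7 fell and 2 rose, and 8 of the 9 moved alike (45.0% called, median -0.22). Besides Adh1c, the alcohol dehydrogenases Adh7 (-3.29 ± 0.51) and Adh4 (-2.13 ± 0.23) fell, as did the retinal and aldehyde dehydrogenase Aldh1a1 (-1.32 ± 0.20) and the aldo-keto reductase Akr1b8 (-0.95 ± 0.08). Adh7 was dim in jejunum, at 3.3 to 35.3, against 103 to 428 in duodenum. Aldh1b1, a mitochondrial aldehyde dehydrogenase, went the other way (1.64 ± 0.17) without overlap. Of 28 glutathione and antioxidant genes, 6 fell and none rose (21.4% called, median -0.26). These were Nqo1, Gsta3, Gpx4, Txnrd1, Gstm2 and Gsta4, by 0.58 to 0.95 each, and all moved alike. With any 1 group of rats left out, 4 to 6 of the 28 fell. The count was 3 with median centring, 2 without the replicate block and 0 in the values as deposited. It was 2 without both groups of rats with raised pancreas markers. Without both groups of rats with an unscaled duodenum array, which left a single pair in +/b, the median was -0.17. Of 18 cytochrome P450 genes, 4 fell and 2 rose (33.3% called), with Cyp2s1 (-1.32 ± 0.15), Cyp51 of sterol synthesis (-1.13 ± 0.18) and Cyp1a1 (-0.84 ± 0.20) the largest. Cyp2s1, Cyp1a1 and Cyp4b1, which rose, did not move alike.

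Of 13 enteroendocrine genes tested, 3 rose and 4 fell in jejunum (53.8% called, median 0.00), and all but Cck moved alike. These counts depended on single groups of rats: 2 rose when +/b replicate 1, b/b replicate 2 or b/b replicate 3 was left out, and 2 fell without +/b replicate 2 or b/b replicate 2. In the values as deposited none fell and 3 rose. Nts, neurotensin, had 4250.0, 8067 and 4827 in b/b jejunum and 5260, 6589 and 3061 in +/b jejunum, against 406, 542 and 179 in b/b duodenum and 283, 1883 and 481.5 in +/b duodenum. Pyy, peptide YY, had 98.5, 358 and 229.9 in b/b jejunum and 211.5, 159.5 and 81.6 in +/b jejunum, against 13.6, 7.8 and 6.4 in b/b duodenum and 9.0, 30.3 and 6.6 in +/b duodenum. Gcg, which encodes the glucagon-like peptides, rose by 2.48 ± 0.25, and its b/b pairs and +/b pairs 1 and 3 lay between 2.41 and 3.25. The exception was +/b replicate 2 at 0.83, whose duodenum signal of 801 stood above the other 5 (64.6 to 195). These 3 are hormones of the more distal gut. Ghrl, ghrelin, made mainly in the stomach, fell by 1.90 ± 0.25 without overlap, Sct, secretin, by 0.82 ± 0.11, Cck, cholecystokinin, by 0.82 ± 0.21 and Sst, somatostatin, by 0.60 ± 0.12. Chga, a general endocrine granule protein, was at 0.09 (adjusted p = 0.90) and Gip at 0.30 (adjusted p = 0.11).

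Of 7 Paneth cell genes tested (11 on the array), 4 rose in jejunum, all of which moved alike, and none fell (57.1% called, median 1.47). With the 4 dim members included the median was 0.24. Mmp7 entered only through jejunum, and at a filter of 200, which it misses, 3 of 6 rose with a median of 0.85. Pla2g2a, an antibacterial phospholipase of Paneth granules, had 4580, 8726 and 2447 in b/b jejunum and 13113, 4950 and 3993 in +/b jejunum, against 842, 255.5 and 144 in b/b duodenum and 1817, 805 and 508 in +/b duodenum. The groups did not overlap (3.29 ± 0.25). Mmp7, which activates defensins in the mouse, rose by 2.86 ± 0.48, the defensin Defa24 by 2.12 ± 0.17 and lysozyme Lyz2 by 1.47 ± 0.13. RatNP-3b, another defensin and not on the list, rose by 2.32 ± 0.26. Defensins are a multigene family whose probe sets may share signal, and Lyz2 is also a macrophage gene. Reg3b (0.24) and Reg3g (-0.20), which enterocytes also make, did not pass.

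Of 34 cell cycle genes, 10 rose and none fell (29.4% called, median 0.62). Cdk1 (1.09 ± 0.24, not moved alike), Ccna2 (0.94 ± 0.22), Ccnb1 (0.81 ± 0.17), Mcm2 (0.81 ± 0.18) and the proliferation antigen Mki67 (0.70 ± 0.14) were among them. This count rested on single groups of rats: it was 0 when the b/b replicate 2 pair was left out, 1 for +/b replicate 2, 2 for b/b replicate 3 and 5 for +/b replicate 1, while the median stayed between 0.51 and 0.71 with any 1 group of rats left out. Of 11 crypt stem and progenitor genes, Myc (0.91 ± 0.20), Slc12a2 (0.94 ± 0.14) and Cdca7 (0.88 ± 0.16) rose, and the stem cell receptor Lgr5 was at 1.45 (adjusted p = 0.13). Cdca7 did not move alike (1.20 in b/b and 0.57 in +/b rats). The count of 3 was 1 without b/b replicate 2, 2 without b/b replicate 3 or any 1 of the +/b replicates, and 0 without both groups of rats with an unscaled duodenum array. Smooth muscle, fibroblast and matrix markers had a median of 0.43, with 1 of 17 called (Dcn, 0.93 ± 0.18), which did not move alike. The markers summed to 9160 to 17682 in b/b jejunum and 8314 to 9322 in b/b duodenum, and to 11081 to 13450 in +/b jejunum and 8761 to 13050 in +/b duodenum. None of these 17 was under 100 on all arrays of a group. Their part in the crypt and cell cycle values was not tested.

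Transporters of water, acid and base moved both ways, with 5 of 21 genes higher and 5 lower (47.6% called, median 0.05). The water channels split: Aqp3 (1.60 ± 0.23), Aqp1 (1.39 ± 0.13) and Aqp4 (0.99 ± 0.25) rose, and Aqp8 fell. Aqp3 did not move alike, since its rise was 2.48 in b/b and 0.73 in +/b rats and its signals overlapped. The bicarbonate carriers Slc4a7 and Slc4a4 (-1.34 ± 0.17), the chloride channel Cftr (-0.83 ± 0.14) and the exchanger Slc26a6 (-0.50 ± 0.09) fell, and carbonic anhydrase Car4 rose by 1.13 ± 0.13. Slc4a7, outside the list, had 894.6 to 3391 on the jejunum arrays (median 1923), against 7077 to 19344 on the duodenum arrays (median 15100). Of 17 zinc and copper genes, Slc39a10, a zinc importer, rose by 1.89 ± 0.25, more in +/b (2.09) than in b/b rats (1.69) without a test of that inequality passing, and the manganese exporter Slc30a10 fell by 1.31 ± 0.14. Of 15 ABC transporters, Abcb1a, P-glycoprotein, rose by 1.29 ± 0.13.

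Of 16 goblet cell and Brunner gland genes, 2 rose and 2 fell, and mucin Muc2 was at 0.02 (adjusted p = 0.94). Those that fell were the mucus protein Fcgbp (-0.39 ± 0.09) and Tff1 (-1.64 ± 0.26), a gastric-type peptide, and Tff1 did not move alike (-2.55 in b/b and -0.72 in +/b rats). Tff1 had 42.7 to 170.3 on the 6 jejunum arrays, against 205, 717.5 and 1715 in b/b duodenum and 69.0, 267 and 241 in +/b duodenum. Gkn1, another gastric-type peptide and not on the list, was called (-1.72 ± 0.42, adjusted p = 0.041) but did not move alike, with -2.94 in b/b and -0.51 in +/b rats, and its +/b replicate 3 pair stood at 0.48. Its call held in 7 of 19 alternatives (adjusted p up to 0.348) and was lost when +/b replicate 1, +/b replicate 2, b/b replicate 2 or b/b replicate 3 was left out. None of 12 tight junction genes and none of 8 MHC class II genes passed (0.00% called in each by limma at an adjusted p below 0.05), with medians of -0.02 and -0.15. At an unadjusted p below 0.05, 3 tight junction genes were higher and 2 lower, and no MHC class II gene was higher and 2 were lower. Of the 18 pancreas markers tested, Reg1a alone passed (-1.95 ± 0.28). Its signals did not overlap between the segments, and it was 3663 to 7242 on the duodenum arrays, including 6011 on the pancreas-rich one. The median of the 18 was -1.89, and 0.04 without the 2 groups of rats with raised pancreas markers.

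**Figure D4:**
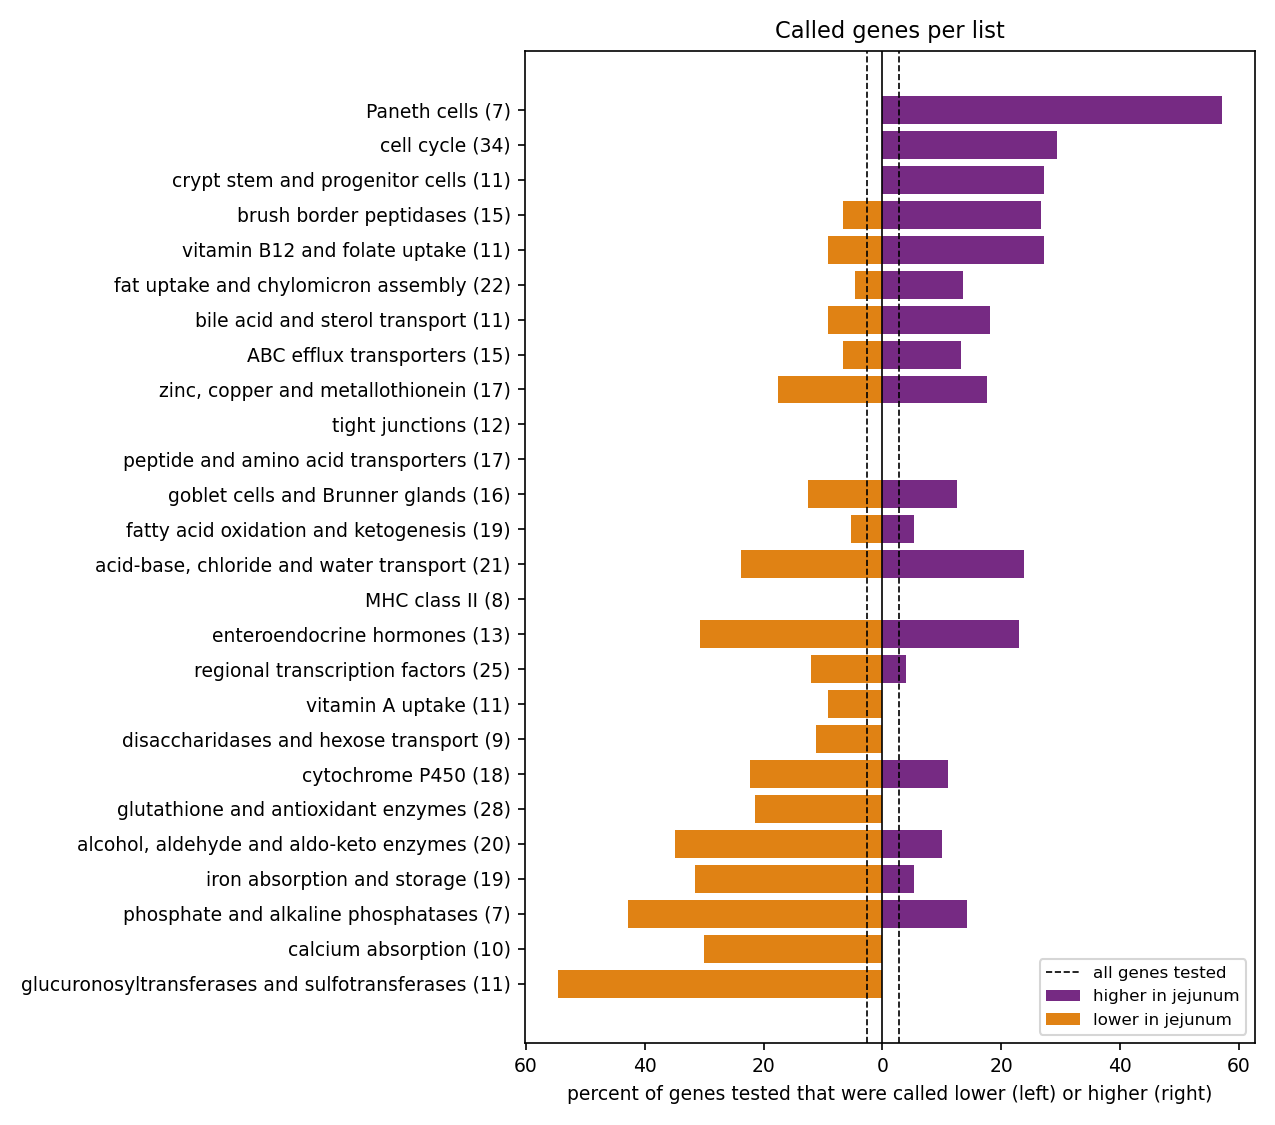
Percentage of the genes tested in each of the 26 lists that were called higher (purple, right) or lower (orange, left) in jejunum, with the number tested in brackets and dashed lines at the share over all genes tested (2.77% higher and 2.62% lower). The Paneth cell list reaches farthest to the right and the glucuronosyltransferase and sulfotransferase list farthest to the left.

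The places of the genes that moved alike were looked up in the RefSeq gene table (GRCr8). Among 429 genes with a place, 41 pairs had at most 2 genes between them, and 30 of these pairs (73.2%) moved in the same direction. Of all 9938 genes tested with a place, 8667 such pairs formed, and 54.8% had the same sign, called or not. How many pairs that many genes would form at random places was not computed. Adh7 and Adh1c are adjacent on chromosome 2, with Adh4 nearby, and all 3 fell. Ugt2b35 and Ugt2b7 are adjacent on chromosome 14, with Ugt2b15 nearby, and all 3 fell. Plb1 and its neighbour Ppp1cb moved in opposite directions (5.58 and -0.44).

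The 250 bases before the start of transcription (RefSeq, GRCr8) are shown for both genes that rose most and for 2 adjacent pairs among those that fell together, the Adh and the Ugt2b pair, whose falls were the largest. They are written on the strand of the gene, 5′ to 3′, and capitals mark matches on either strand to a GATA motif (letters AGATAA, else TGATAA, else AGATAG, else TGATAG) or a CDX motif (letters TTTATG, else TTTACG, else TTTATT), motifs of factors that act along the intestine.
Plb1, chr6:29930184-29930433, minus strand: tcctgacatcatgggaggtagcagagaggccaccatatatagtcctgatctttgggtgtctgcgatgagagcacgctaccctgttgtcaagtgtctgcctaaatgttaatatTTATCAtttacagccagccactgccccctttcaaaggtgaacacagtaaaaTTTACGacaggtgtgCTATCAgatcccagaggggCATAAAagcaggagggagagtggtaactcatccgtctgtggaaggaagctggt
Tmigd1, chr10:62236965-62237214, plus strand: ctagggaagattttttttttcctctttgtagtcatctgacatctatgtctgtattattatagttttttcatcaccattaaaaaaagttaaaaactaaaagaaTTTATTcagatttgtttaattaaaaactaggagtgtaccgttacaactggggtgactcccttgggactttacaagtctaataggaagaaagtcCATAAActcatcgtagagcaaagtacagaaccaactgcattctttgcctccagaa
Adh1c, chr2:229470453-229470702, plus strand: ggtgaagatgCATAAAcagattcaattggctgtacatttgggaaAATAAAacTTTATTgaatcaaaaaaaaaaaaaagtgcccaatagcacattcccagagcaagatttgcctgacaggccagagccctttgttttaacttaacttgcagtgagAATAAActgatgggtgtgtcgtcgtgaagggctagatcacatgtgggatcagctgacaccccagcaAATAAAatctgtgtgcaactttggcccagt
Adh7, chr2:229421875-229422124, plus strand: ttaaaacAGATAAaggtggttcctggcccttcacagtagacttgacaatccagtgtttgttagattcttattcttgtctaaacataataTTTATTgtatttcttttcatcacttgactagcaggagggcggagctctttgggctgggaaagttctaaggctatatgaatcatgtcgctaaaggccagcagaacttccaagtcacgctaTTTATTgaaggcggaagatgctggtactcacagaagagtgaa
Ugt2b7, chr14:21251285-21251534, plus strand: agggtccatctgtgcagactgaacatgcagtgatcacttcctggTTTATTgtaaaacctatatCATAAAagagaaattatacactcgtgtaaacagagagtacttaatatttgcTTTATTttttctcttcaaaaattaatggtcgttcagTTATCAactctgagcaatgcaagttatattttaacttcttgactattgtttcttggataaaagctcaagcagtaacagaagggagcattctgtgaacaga
Ugt2b35, chr14:21208191-21208440, plus strand: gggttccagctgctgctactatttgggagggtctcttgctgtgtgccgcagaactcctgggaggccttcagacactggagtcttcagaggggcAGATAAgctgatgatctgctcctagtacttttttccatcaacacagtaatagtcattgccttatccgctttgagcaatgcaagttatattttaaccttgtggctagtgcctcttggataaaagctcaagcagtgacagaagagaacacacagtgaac
In Plb1 and Tmigd1 the letters TTTATG lie on the opposite strand, 53 and 55 bases before the start. Plb1 has 2 GATA and 2 CDX matches, Adh1c 5 CDX matches, Adh7 1 GATA and 2 CDX matches, Ugt2b7 1 GATA and 3 CDX matches, and Ugt2b35 a single GATA match. The longest run of bases that the promoters of Ugt2b7 and Ugt2b35 share is 25, and that of Adh1c and Adh7 is 9. Over the whole window of 300 bases, 22.0% of 173 matched genes that rose and 23.9% of 176 that fell held a GATA match, against 19.1% of 8435 genes tested and 29.9% of all 27457 promoters in the table. For the CDX motif these shares were 22.0%, 22.7%, 19.8% and 31.4%. Matches that overlapped were each counted, and a match describes letters, not a bound site. Of the 30 genes with the largest shared change, 24 had an entry.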

How the data were processed

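The values are signal intensities per probe set on the linear scale as deposited by the authors, 1 column per array of a rat Affymetrix design. For 10 of the 12 arrays the submitters' processing notes list MAS5, without version or settings; none is given for b/b jejunum replicates 2 and 3, so this gap lies on the jejunum side of the b/b contrast. The file held 31099 probe sets. The 57 hybridisation controls were left out, and GEO's platform annotation gave 1 gene for 20826 of the others, several for 436 and none for 9780. Probe sets with several were never used to name a gene.

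Each array was scaled to a 2% trimmed mean of 500. Probe sets with a mean of at least 100 (17694) were tested on log2(signal + 16) with limma 3.58.1 (R 4.3.3), with a fixed block per group of rats, a segment effect per genotype and an intensity trend. P-values were two-sided and adjusted by Benjamini-Hochberg over all probe sets tested. They measure how the jejunum minus duodenum difference varies between groups of rats of a genotype, and the number of pairs (6) limits the precision. The pairing comes from the series design. Deviations of paired arrays from their group means correlated at 0.16 to 0.38 in b/b and 0.19 to 0.28 in +/b rats.

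The members and the 32 gene lists (652 symbols, 548 on the array) were chosen with earlier results of these data known, so that lists are described by counts and medians, with no set test. Named are up to 15 genes per direction with the largest shared change, up to 6 members per list described (called ones first), and 6 called genes with the most unequal genotype effects. Sult6b2, Slc4a7 and RatNP-3b are named by the first part of this rule. Genes at the edge of a threshold, markers, uncalled list members and neighbours were chosen after their values were seen.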

Additional observations from a re-analysis of the deposited data

Results flagged for a closer look

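The Gcg difference of the +/b replicate 2 pair, 0.83, stood apart from the other 5 pairs, of which the nearest was 2.41. The Slc4a7 difference of the b/b replicate 2 pair, -4.41, stood apart from the others in the same way, the nearest being -2.72. Chance flags about 1 in 20 groups of 6 by this criterion, and 2 of 36 genes checked met it. The segment difference differed between genotypes (b/b minus +/b) by -3.80 for Cybrd1 and by -4.04 for a probe set with no gene. That probe set had 233, 503 and 212 in b/b jejunum and 2842, 12989 and 12207 in b/b duodenum, and 243, 352 and 411 in +/b jejunum and 490.0, 415 and 634 in +/b duodenum.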

How the results depend on the processing

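Counts are given for the mean segment difference, its higher and lower parts, the probe sets that moved alike, the b/b and the +/b contrasts and the genotype difference. Leaving out each group of rats in turn gave 309 to 756 calls, 125 to 394 higher, 184 to 362 lower, 245 to 504 alike, 101 to 509 in b/b, 11 to 97 in +/b and 0 to 2 for the genotype difference. Without the replicate block the counts were 247, 108, 139, 199, 135, 10 and 0. With the values as deposited, where the median of all probe sets moved to 0.84 from the 2 unscaled arrays, they were 162, 140, 22, 109, 38 and 211, with 3 for the genotype difference, so 86.4% of calls were higher. Median centring gave 428, 215, 213, 298, 244 and 52. Without both groups of rats with an unscaled duodenum array they were 241, 89, 152, 207 and, in +/b, 12, with 0 for the genotype difference, and 36.9% of calls were higher. Without both groups of rats with raised pancreas markers, an alternative chosen after seeing the data, they were 276, 97, 179, 228, 140, 30 and 0, and 35.1% were higher. A random replicate block gave 55 in +/b, array weights gave 878 in b/b and 4 for the genotype difference, and quantile normalization gave 0 for that difference. The other counts, under these and under pseudocounts of 1 and 64, no filter, a filter at 200 and a common segment effect, stayed within 1.5 times. The cause was not tested, beyond fewer pairs where groups were left out. All 566 probe sets that moved alike kept their sign under median centring and quantile normalization, and 396 did in the values as deposited. The other alternatives could not reverse a sign, because the rule for moving alike requires the same sign in every pair. The signs kept there are no separate support. The filter at 200 left 537 to compare. Of the 36 named genes none reversed, but those that moved alike could have reversed only under a changed scaling. In all 19 alternatives that tested them, 27 of the 36 were called. Signals of at most 24.4 for Mmp7 and 30.3 for Pyy in duodenum, and of at most 35.3 for Adh7 in jejunum, limit the size of their fold changes, and with a constant of 64 the fold of 12 of the 30 genes with the largest shared change moved by over 1.5 times.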

Other observations

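Among genes outside the lists that moved alike, the following were chosen after their values were seen. Tnfsf13, the B cell survival factor APRIL, was lower in jejunum by both of its probe sets, and the brighter (-1.91 ± 0.13, SE, n = 6 pairs) had signals of 679 to 1573 on the jejunum arrays, against 1918 to 6154 on the duodenum arrays. Htatip2 had 828 to 1340 on the jejunum arrays, against 3418 to 4066 on the duodenum arrays, so that all 12 arrays lay in 2 narrow ranges (-1.76 ± 0.11). Car9, carbonic anhydrase 9, had 568 to 836 on the jejunum arrays, against 1626 to 4109 on the duodenum arrays (-1.72 ± 0.14). The nucleoside carrier Slc28a2 (-1.39 ± 0.18) and the fatty acid elongase Elovl6 (-1.34 ± 0.16) were also lower.

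Beside Cyp51, the sterol synthesis genes Idi1 (-1.29 ± 0.23) and Msmo1 (-1.17 ± 0.22) fell. Msmo1 had 2313, 1852 and 4192 in b/b jejunum and 1909, 1649 and 3008 in +/b jejunum, against 2813, 6792 and 11636 in b/b duodenum and 5358, 1881 and 9834 in +/b duodenum. The duodenum arrays of b/b replicate 1 and +/b replicate 2 lay within the range of the jejunum arrays. Among the genes that rose were Acss3, a short-chain acyl-CoA synthetase (1.78 ± 0.23), the alarmin Il33 (1.62 ± 0.38), the immediate early gene Fosb (1.44 ± 0.34) and the fibrinogen chain Fga (1.18 ± 0.20).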
